A study of Mus musculus with 12 samples.

Results

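Otx2, Crx, Neurod1, Prdm1, Mef2d, Nrl, Nr2e3, Rorb, Thrb and Rxrg are 10 transcription factors of photoreceptors, taken by symbol, by a rule that uses no measured value but with earlier results of these data known, from the 53028 genes of a mouse retinal expression table, with their 60 annotated transcripts from the 141450 of a companion table. Photoreceptors take and keep their identity through a small set of transcription factors. Otx2 switches on the photoreceptor programme and the related homeobox gene Crx, the leucine-zipper factor Nrl together with the orphan nuclear receptor Nr2e3 directs cells to the rod fate, and the nuclear receptors Rorb, Thrb and Rxrg act on rod specification and on the choice of cone opsin. Neurod1, Mef2d and Prdm1 support, co-activate or protect that programme. All 10 genes were present and all 10 passed the filter on low values, a CPM (reads per gene scaled to a common, TMM-adjusted library size) of at least 1 in at least 3 libraries.

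The retinas came from mice homozygous for a CRISPR-made deletion, labelled Pilrb1/2 -/- (knockout, KO), and from Pilrb1/2 +/+ mice (wild type, WT), at postnatal day 28 (P28) and at 12 months of age, with 3 libraries in each of the 4 groups. The edit was made in C57BL/6J zygotes and the founder's progeny were bred to C57BL/6J. The design text names Pilra beside Pilrb1/2 as deleted, and the labels name Pilrb1/2 only. The deletion is in the germ line, so every cell of a KO retina carries it, and bulk RNA of a whole retina cannot tell fewer cells of a type from less RNA per cell. No label ties a library to an animal. The p-values below therefore weigh differences against the scatter among the 3 libraries of each group, which may be technical. In the main fit that scatter is pooled over all 4 groups, so it can include libraries of groups not being compared. Comparisons that share a group also share its libraries.

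The targeted genes could not check the labels. Pilrb1 and Pilrb2 were listed at 0 CPM in all KO and WT libraries but 1 each, where the value was that of 1 read. Pilra was at 0.441, 1.16 and 0.819 CPM in P28 KO libraries and 0.133, 0.167 and 0.171 CPM in P28 WT libraries, and at 0.0556 to 0.309 CPM in 12-month KO and 0.159 to 0.268 CPM in 12-month WT libraries. It was not lower in libraries labelled KO at P28, and which of its exons were deleted is not given in the sources used here, so KO and WT stand below for libraries so labelled. Depth was 14.7 to 25.9 M reads, so that 3 reads corresponded to 0.111 to 0.192 CPM; both cover counting error only. The cone opsin gene Opn1sw, a defining marker of cones, was at 147 to 327 CPM. One library stood apart, P28 KO library 2, where 11 lens markers summed to 5200 CPM, against 10.9 to 1840 CPM elsewhere. Among 12-month libraries, KO library 2 was at 731 CPM and the others at 10.9 to 55.8 CPM. The part of lens tissue in the 12-month differences was not tested. By Xist 2 of the 3 P28 KO and 2 of the 3 12-month WT libraries were female, and no others were. Sex was therefore unequal between genotypes at each age and between ages in each genotype.

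Reference sequence is shown for Prdm1 and Rorb, the genes called with age, and for Crx and Nr2e3, whose transcript forms differed at 12 months. The first lines are RefSeq promoter windows of GRCm38.p6, from 250 bases before to 50 bases after the annotated start, printed 5′ to 3′ on the minus strand that carries each gene. Capitals mark TAATCC or its reverse complement GGATTA, the core bound by CRX and OTX2.
Crx, chr7:15879906-15880205: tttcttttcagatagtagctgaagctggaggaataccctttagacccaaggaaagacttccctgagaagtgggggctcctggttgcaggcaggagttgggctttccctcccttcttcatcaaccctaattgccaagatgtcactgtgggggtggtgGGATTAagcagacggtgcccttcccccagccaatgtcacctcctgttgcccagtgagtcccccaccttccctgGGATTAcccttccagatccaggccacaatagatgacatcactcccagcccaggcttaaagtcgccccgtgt
Prdm1, chr10:44458699-44458998: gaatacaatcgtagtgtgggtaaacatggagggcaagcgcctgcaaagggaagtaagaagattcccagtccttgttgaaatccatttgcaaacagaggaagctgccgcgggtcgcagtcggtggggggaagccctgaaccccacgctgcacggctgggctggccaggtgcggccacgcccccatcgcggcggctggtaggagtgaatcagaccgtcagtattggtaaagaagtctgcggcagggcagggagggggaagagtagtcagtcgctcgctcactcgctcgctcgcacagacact
Rorb, start of the form Rorb-201, chr19:19001068-19001367: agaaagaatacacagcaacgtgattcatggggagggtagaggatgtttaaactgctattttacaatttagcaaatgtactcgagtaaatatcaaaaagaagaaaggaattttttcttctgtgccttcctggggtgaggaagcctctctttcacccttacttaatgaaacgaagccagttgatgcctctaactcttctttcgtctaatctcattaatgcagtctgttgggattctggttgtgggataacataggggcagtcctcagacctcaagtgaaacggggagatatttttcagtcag
The Crx window held 2 copies of the core and the Prdm1 and Rorb windows held none. Over the 16 promoter entries of the 10 members, 3 entries (of Crx, Thrb and Otx2) held it on either strand, as did 7.06% of 32851 mouse promoter windows. A match describes letters in a window and is not a binding site.

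Rorb has a pair of forms with separate first exons, which are shown from the start codon, with the coding bases of the form's own first exon in capitals (GRCm38, minus strand, first-exon coding parts at chr19:19001007-19001046 and chr19:19110552-19110558).
Rorb-201, known as RORβ2, the form of retina and pineal gland: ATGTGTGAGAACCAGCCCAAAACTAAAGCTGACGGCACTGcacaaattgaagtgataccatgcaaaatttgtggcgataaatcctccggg
Rorb-203, known as RORβ1: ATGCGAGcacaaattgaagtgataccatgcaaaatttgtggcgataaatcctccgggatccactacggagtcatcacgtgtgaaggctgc
The Rorb forms differ by 40 against 7 coding bases in that exon and share all 9 exons after it. For Nr2e3 the segment shown is the 100-base intron that the annotated transcript Nr2e3-202 keeps and the coding transcript Nr2e3-201 removes, in capitals between its exon ends (GRCm38, chr9:59948810-59948939, minus strand).
Nr2e3 kept intron: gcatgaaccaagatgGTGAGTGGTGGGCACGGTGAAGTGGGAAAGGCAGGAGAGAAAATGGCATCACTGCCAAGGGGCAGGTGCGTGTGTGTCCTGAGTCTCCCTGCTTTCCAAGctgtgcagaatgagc

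Per kilobase of transcript (RPKM, summed over a gene's transcripts), Nrl was the most abundant of the 10 factors in all 4 groups, followed by Crx and then Nr2e3. Nrl averaged 630 ± 66.0 RPKM in 12-month KO and 711 ± 8.95 RPKM in 12-month WT retina (SD, n = 3 each), and Crx averaged 416 ± 4.73 and 390 ± 10.7 RPKM in those groups. Nr2e3 stood at 206 ± 12.0 RPKM in 12-month KO and 202 ± 4.01 RPKM in 12-month WT retina. Otx2 and Neurod1 came next and changed places between groups: in 12-month KO libraries Otx2 was at 162 to 172 RPKM and Neurod1 at 173 to 224 RPKM, and in 12-month WT libraries Otx2 was at 139 to 146 RPKM and Neurod1 at 89.7 to 105 RPKM. Rorb and Mef2d followed, with ranges of 33.2 to 67.2 RPKM and 31.5 to 65.4 RPKM over the 12 libraries, which overlap. Thrb, the thyroid hormone receptor that promotes the middle-wavelength cone opsin, was at 16.7 to 26.6 RPKM. Prdm1 and Rxrg were lowest, at 1.40 to 7.58 and 0.952 to 2.36 RPKM.

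**Figure D1:**
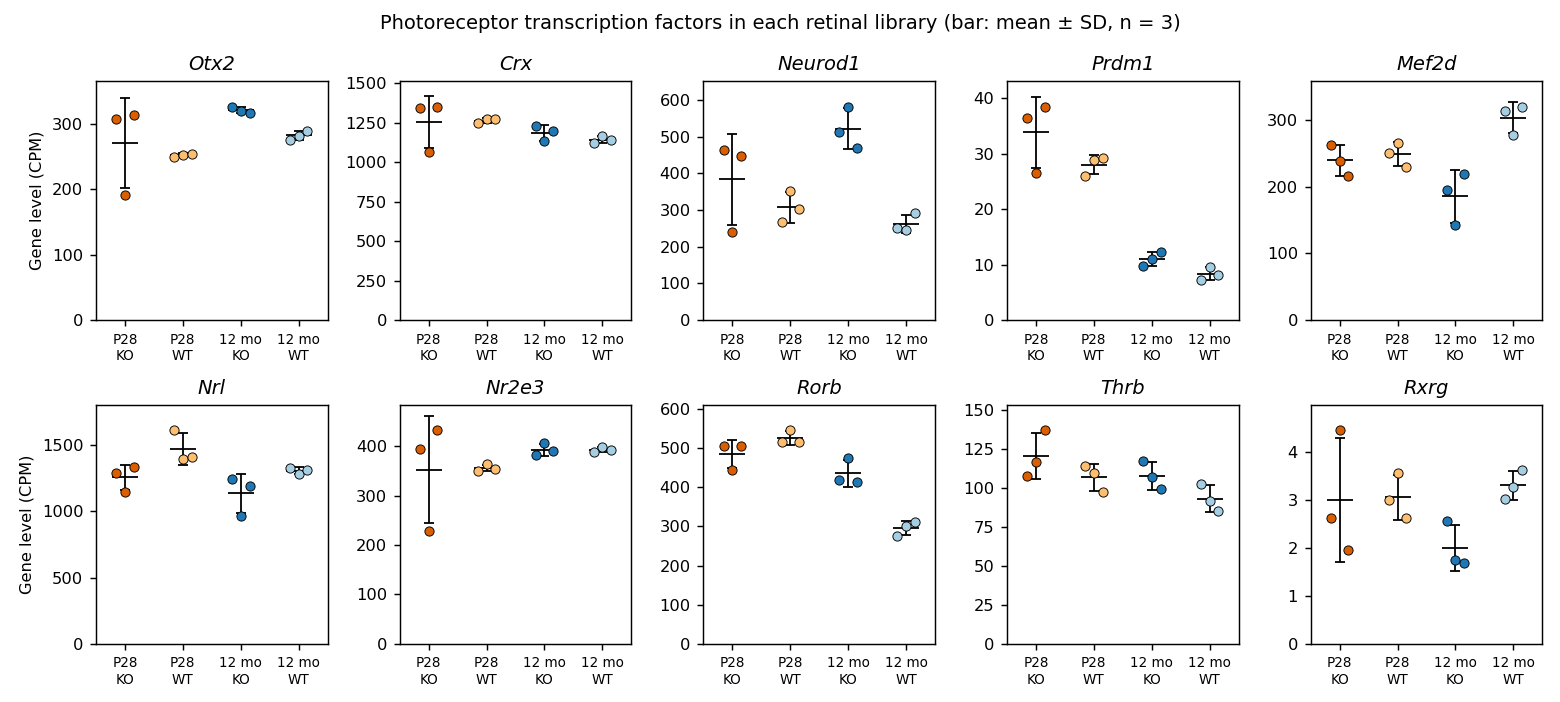
Gene level in CPM (linear axis from 0) of each of the 10 factors in each of the 12 libraries, with the P28 and 12-month KO groups left of their WT groups; points are libraries and the bar with whiskers is the mean ± SD. Prdm1 lies between 7.27 and 12.2 CPM in the 6 libraries of 12-month retinas and between 26.1 and 38.5 CPM in the 6 P28 libraries, and Rorb in 12-month WT libraries lies below every other library.

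Prdm1 was the one member called with age in both genotypes. It encodes the zinc-finger repressor also called Blimp1, which in new photoreceptors holds back the bipolar cell programme. Prdm1 was at 7.27, 9.61 and 8.14 CPM in 12-month WT libraries, against 26.1, 28.8 and 29.2 CPM in P28 WT libraries. In KO retinas Prdm1 was at 9.73, 11.1 and 12.2 CPM at 12 months, against 36.4, 26.6 and 38.5 CPM at P28. All 6 older libraries were below all 6 younger ones. Prdm1 fell by 1.64 ± 0.15 (log2(CPM + 1) scale, SE) in WT, with an adjusted p of 3.5e-05 from limma over all genes tested, and by 1.52 ± 0.15 in KO, with an adjusted p of 3.84e-05. The fall held under every alternative tried, with fold changes of −1.74 to −1.31 in WT and −1.69 to −1.27 in KO.

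Rorb encodes the nuclear receptor that induces Nrl in rod precursors and also works in horizontal and amacrine cells. Rorb was at 277, 302 and 311 CPM in 12-month WT libraries, against 516, 546 and 515 CPM in P28 WT libraries. In KO retinas it was at 420, 475 and 413 CPM at 12 months, against 505, 444 and 506 CPM at P28. The WT ages did not overlap, whereas 1 of the older KO libraries lay within the range of the younger ones. Rorb fell by 0.82 ± 0.09 with age in WT (limma, adjusted p = 0.000117), a level 0.565 times that at P28, and had a change of −0.15 ± 0.09 in KO (adjusted p = 0.207). The KO value passed in 4 of 26 alternatives: after quantile normalization (−0.25, adjusted p = 0.0381), after removal of GC and length trends (−0.30, adjusted p = 0.0213), with a sex term added to that (−0.43, adjusted p = 0.00544) and without both KO libraries numbered 2 (−0.28, adjusted p = 0.0311). The WT fall passed under every alternative.

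In WT, Prdm1 and Rorb were the only members called between ages, 0 higher and 2 lower of 10, where 5.4% of all 16486 genes tested were called in either direction and 1.75% were lower. In KO, Prdm1 alone was called, 0 higher and 1 lower of 10, where 27.2% of all genes were called and 13.9% were lower, so the members' share is below the background there. Libraries of the 2 ages did not overlap for 7 of 10 members in WT, against 34.9% of all genes, and for 3 of 10 members in KO, against 36.0%. The remaining 8 members had WT differences between −0.22 (Neurod1) and 0.29 (Mef2d), and none passed. In KO, Neurod1 (0.50 ± 0.20, adjusted p = 0.0869) and Mef2d (−0.39 ± 0.14, adjusted p = 0.0551) had differences of the other sign, and neither passed. Summed levels of 12 amacrine and horizontal cell markers, cells that also use Rorb, were 1080 to 1130 CPM in 12-month WT and 1050 to 1320 CPM in P28 WT libraries. Of the 11 tested, 0 were called higher and 1 lower by limma with age in WT, beside 5.4% of all genes called. The 1 was the horizontal cell marker Calb1 (95.5 ± 2.84 against 159 ± 6.57 CPM, log2 change −0.73, adjusted p = 0.0216). The part of these cells in the fall of Rorb was not tested.

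**Figure D2:**
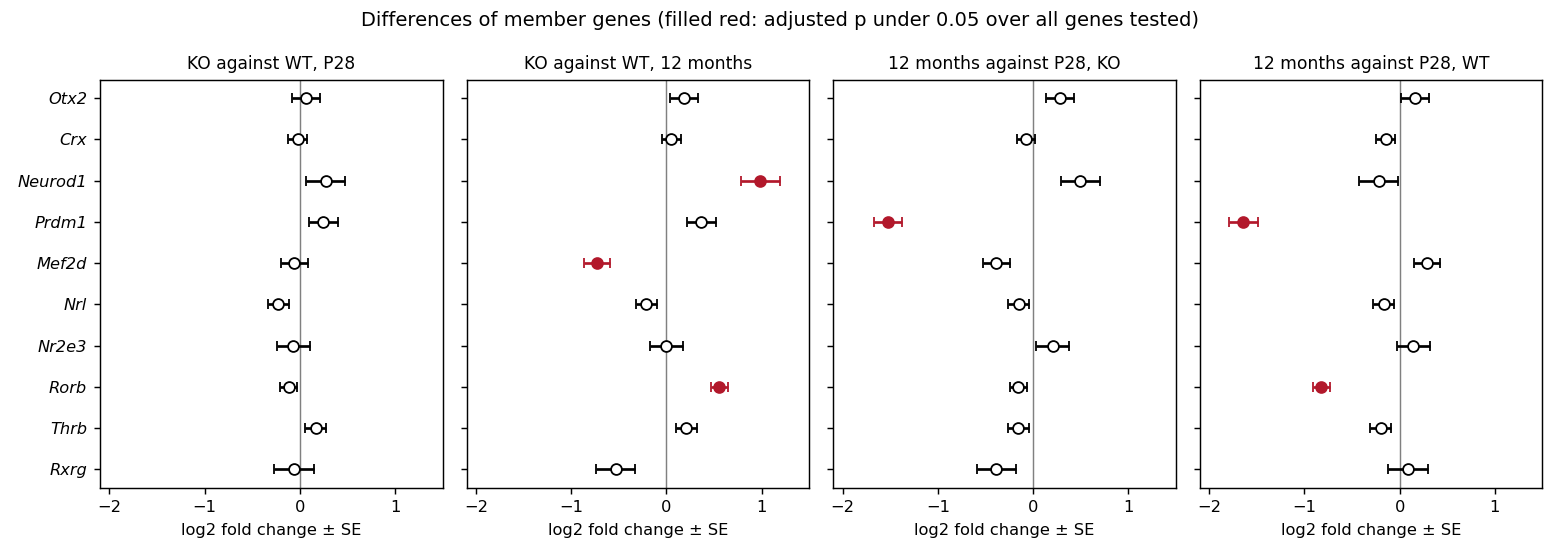
Log2 fold change with its SE for each factor in 4 comparisons, KO against WT at P28 and at 12 months and 12 months against P28 in KO and in WT; filled red points passed an adjusted p of 0.05 over all genes tested. Prdm1 lies at −1.64 in WT and −1.52 in KO in the age comparisons, the one factor called in both genotypes, and no factor is filled in the P28 comparison.

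At P28 none of the 10 factors was called between KO and WT by limma, and 0 of 10 had an unadjusted p under 0.05; of all genes tested, 1.49% were called and 21.4% had an unadjusted p under 0.05. Crx, the regulator of most photoreceptor genes, was at 1345, 1063 and 1351 CPM in KO and 1248, 1270 and 1271 CPM in WT, a difference of −0.02 (95% interval −0.24 to 0.20). Nrl was at 1289, 1150 and 1333 CPM in KO and 1613, 1396 and 1409 CPM in WT. All KO libraries were below all WT libraries for Nrl, and the difference of −0.23 ± 0.11 had an adjusted p of 0.257. Among the other members, Mef2d was at 263, 239 and 216 CPM in KO and 251, 266 and 230 CPM in WT, Thrb at 108, 116 and 137 CPM in KO and 114, 109 and 97.1 CPM in WT, and Rxrg at 1.95 to 4.46 CPM in KO and 2.63 to 3.56 CPM in WT, all with overlap. Rorb was the other of 2 members whose libraries did not overlap at P28 (−0.12, adjusted p = 0.466), against 23.8% of all genes.

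The P28 values of several members rested on KO library 2, the library with the highest sum of lens markers. Otx2 was at 307, 190 and 314 CPM in KO and 249, 252 and 254 CPM in WT. Neurod1 was at 463, 241 and 448 CPM in KO and 268, 351 and 302 CPM in WT. For both, library 2 was the lowest of all 12 and the other KO libraries were above every P28 WT library. Nr2e3 had the same pattern, at 395, 229 and 432 CPM in KO and 351, 363 and 353 CPM in WT. Without that library Otx2 (0.30 ± 0.06, adjusted p = 0.0155) and Neurod1 (0.58 ± 0.12, adjusted p = 0.0172) were called higher in KO, 2 of 10 where 8.52% of all genes were called. The part of lens tissue in these values was not tested. With GC and length trends removed, Rorb was the 1 member called at P28 (−0.40, adjusted p = 0.0308), where 2.32% of all genes were called. The mitochondrial share of the summed CPM was 4.56 to 7.08% in P28 KO and 7.36 to 9.31% in P28 WT libraries, and its part in the P28 differences was not tested.

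At 12 months Neurod1 and Rorb were higher and Mef2d was lower in KO retina. These are 3 of 10 members called, where 39.6% of all genes tested were called (16.1% higher and 23.5% lower), so the share of members was no larger than the background; 5 of 10 had an unadjusted p under 0.05, against 49.7% of all genes. Libraries did not overlap for 7 of 10 members, against 59.1% of all genes. The median difference was 0.12 over the members and −0.03 over all genes tested.

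Neurod1, a basic helix-loop-helix factor needed for the survival of mature photoreceptors and for amacrine cell formation, was at 513, 582 and 470 CPM in 12-month KO libraries, against 252, 246 and 290 CPM in WT. Every KO library exceeded every WT library. The level was 1.99 times that of WT (0.99 ± 0.20, limma adjusted p = 0.00435). Rorb, at the 12-month levels given above, was 1.47 times WT (0.55 ± 0.09, adjusted p = 0.00259), again without overlap. Mef2d, a MADS-box factor that binds with CRX at enhancers of photoreceptor genes, was at 196, 142 and 219 CPM in KO libraries, against 314, 278 and 320 CPM in WT. No KO library reached the lowest WT library, and the level was 0.610 times WT (−0.73 ± 0.14, adjusted p = 0.00346).

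Of these 3 calls, 2 were lost when sequence composition was corrected for. The mean GC content of their transcripts was 43.6% for Neurod1, 41.5% for Rorb and 55.6% for Mef2d, and the median over tested genes was 48.6%. With GC and length trends removed from each library, 4.3% of all genes were called in place of 39.6%. Of the members Neurod1 alone was called (0.72 ± 0.18, adjusted p = 0.0472), and Rorb (0.11, adjusted p = 0.437) and Mef2d (−0.19, adjusted p = 0.196) were not. With a sex term added to that fit, limma called 0 of 10 members and 0 of all genes, with 2 members and 16.7% of genes at an unadjusted p under 0.05. Neurod1 was then at 0.45 (adjusted p = 0.259) and Rorb at −0.02. With a sex term alone all 3 were called, beside 30.1% of all genes. The mitochondrial share of the summed CPM was 9.94 to 12.6% in 12-month KO and 7.36 to 8.29% in 12-month WT libraries. It was lower in KO at P28 and higher at 12 months, without overlap in either case or between the ages in KO, and its part in the 12-month and KO age differences was not tested.

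Among the members not called at 12 months, Rxrg, the retinoid X receptor that with Thrb sets the cone opsin pattern, was at 2.56, 1.75 and 1.68 CPM in KO and 3.02, 3.28 and 3.62 CPM in WT (−0.53 ± 0.21, adjusted p = 0.0577). Prdm1 differed by 0.37 ± 0.15 (adjusted p = 0.0684). Otx2 was at 326, 320 and 316 CPM in KO and 276, 282 and 289 CPM in WT, with no overlap and a difference of 0.19 ± 0.15 (adjusted p = 0.33). The spread in that test includes P28 KO library 2, and without it Otx2 (adjusted p = 0.0166), Prdm1 (0.0248) and Rxrg (0.0158) passed as well, making 6 of 10 calls where 47.1% of all genes were called. Summed pigment epithelium markers, from another tissue that expresses Otx2, were 50.6 to 126 CPM in 12-month KO and 65.4 to 264 CPM in 12-month WT libraries. Thrb was at 117, 107 and 99.1 CPM in KO and 102.2, 91.5 and 85.4 CPM in WT, groups that overlap (0.21 ± 0.11, adjusted p = 0.143). Nrl differed by −0.21 (interval −0.45 to 0.03) and Crx by 0.05 (−0.16 to 0.27). The Nr2e3 gene total was at 382, 406 and 391 CPM in KO and 389, 398 and 391 CPM in WT, a difference of 0.00 (−0.38 to 0.37).

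Whether the knockout difference itself changed with age was tested as an interaction, in which 0 of 10 members and 0.176% of all genes were called by limma, 3 members having an unadjusted p under 0.05 against 26.7% of genes. Rorb came nearest, at 0.67 ± 0.12 (adjusted p = 0.052): all KO libraries were below all WT libraries at P28 and above them at 12 months. The call passed in 6 of 25 alternatives, among them without P28 KO library 2 (0.61, adjusted p = 0.0255), and did not with GC and length trends removed (0.51, adjusted p = 0.0901). Mef2d was at −0.67 ± 0.20 (adjusted p = 0.083) and Neurod1 at 0.72 ± 0.29 (adjusted p = 0.144).

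The transcript table showed shifts in which form of Nr2e3 and Crx was counted. Of the 60 member transcripts, 40 had a group mean of at least 0.5 RPKM and 39 were tested. At 12 months 13 member transcripts were called between KO and WT, 4 higher and 9 lower of 39, where 16.2% of all 46931 transcripts were called, 6.12% higher. These estimates divide reads among transcripts that share exons, so members of a gene are not independent of each other.

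Nr2e3-201, the coding transcript of the rod-specific receptor, was at 110, 61.2 and 103 RPKM in 12-month KO libraries, against 166, 172 and 156 RPKM in WT. Nr2e3-202 keeps the intron shown above, and it also begins at another first exon (GRCm38 chr9:59960599-59960659, minus strand) and lacks the first exon and the second exon of Nr2e3-201. It was at 79.6, 154 and 92.6 RPKM in KO, against 14.9, 20.9 and 29.3 RPKM in WT. Groups did not overlap for either form: the coding form was lower in KO (−0.90 ± 0.21 on the log2(RPKM + 0.1) scale, adjusted p = 0.0226) and the difference of Nr2e3-202, 2.31 ± 0.99, was not called (adjusted p = 0.127). P28 KO library 2 held Nr2e3-202 at 2.63 RPKM beside 49.6 and 81.2 RPKM in its group. Nr2e3-202 made up 40.6 to 70.3% of summed Nr2e3 RPKM in 12-month KO and 7.49 to 14.6% in 12-month WT libraries. The other tested retained-intron forms Nr2e3-203, Nr2e3-207 and Nr2e3-209 were called lower in KO, beside the uncalled difference of Nr2e3-202. Over all tested transcripts annotated as retained introns, 10535 in number, the median difference was 0.03, against −0.12 over 24230 coding transcripts.

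Crx-204 begins at another first exon (GRCm38 chr7:15872274-15872388, minus strand) and joins exons of Crx-201. It was at 69.3, 87.9 and 87.7 RPKM in 12-month KO libraries, against 16.6, 35.0 and 29.0 RPKM in WT. Every KO library was above every WT library, and Crx-204 rose by 1.66 ± 0.26 (limma, adjusted p = 0.0101), a call kept in 15 of 15 alternatives. The transcript alternatives held no GC and length correction and no sex term. Crx-201, which starts at chr7:15879968 under the promoter shown above, was at 347, 321 and 323 RPKM in KO and 359, 361 and 355 RPKM in WT (−0.12, adjusted p = 0.476). The share of Crx-204 in summed Crx RPKM was 16.5 to 21.4% in 12-month KO and 4.37 to 8.72% in 12-month WT libraries. Crx-204 was also higher at 12 months than at P28 in KO (1.28 ± 0.26, adjusted p = 0.0177), where it had been at 36.8, 25.0 and 40.7 RPKM.

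Most other transcripts called at 12 months belonged to genes called in the same direction. Neurod1-201 (1.03), Rorb-201 (0.64) and the retained-intron form Rorb-205 (0.60) were higher in KO, and Mef2d-201, Mef2d-203, Mef2d-204 and Mef2d-206 were lower (−1.98 to −0.53). Nrl-201, of a gene that was not called, fell by 0.53 ± 0.14 (adjusted p = 0.0329), at 39.1, 32.3 and 43.9 RPKM in KO and 60.6, 51.4 and 54.1 RPKM in WT, while Nrl-203, which held most of the Nrl signal, differed by −0.12 (adjusted p = 0.574). Of the Rorb forms, Rorb-201 held 70.3 to 88.9% of summed Rorb RPKM in the 12 libraries and Rorb-203 held 4.23 to 9.67%. Rorb-201 fell with age in WT (29.9 ± 2.68 against 56.2 ± 1.77 RPKM, −0.91, adjusted p = 0.0327), while Rorb-203 differed by −0.28 (adjusted p = 0.773). Thrb-202, known as TRβ2, the cone form, held 43.7 to 86.6% of Thrb and was at 17.4, 19.2 and 16.8 RPKM in 12-month KO and 12.0, 12.7 and 13.0 RPKM in 12-month WT libraries (0.50, adjusted p = 0.139). Thrb-201, known as TRβ1, was at 1.54, 0.204 and 0.377 RPKM in KO and 3.24, 2.58 and 1.40 RPKM in WT (−1.94, adjusted p = 0.0652).

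**Figure D3:**
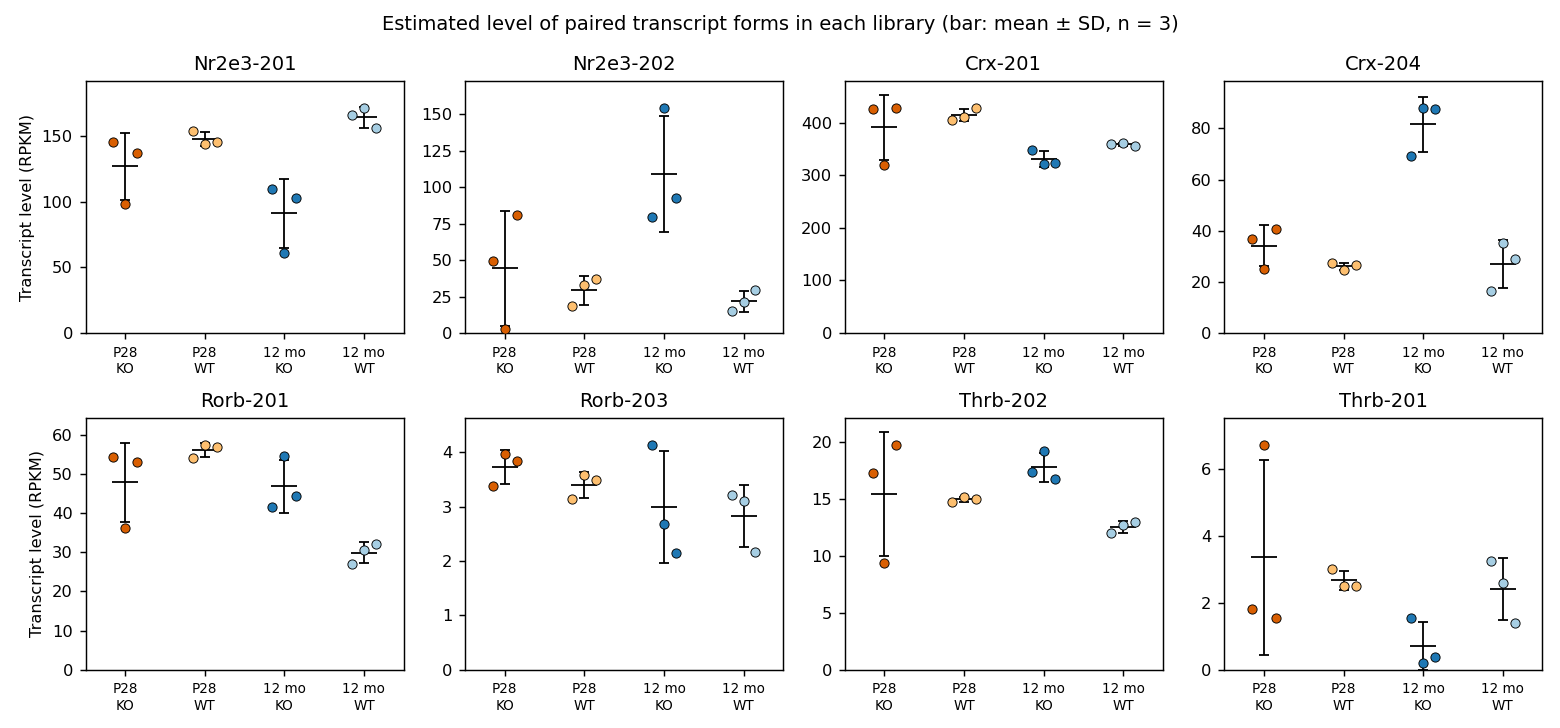
Estimated transcript level in RPKM (linear axes from 0, each with its own scale) for pairs of forms of Nr2e3, Crx, Rorb and Thrb in the 12 libraries, KO left of WT at each age; points are libraries and whiskers the SD around the mean. At 12 months Nr2e3-202 is at 79.6 RPKM or more in KO and 29.3 RPKM or less in WT libraries, Nr2e3-201 runs the other way, and Crx-204 is at 69.3 RPKM or more in KO and 35.0 RPKM or less in WT.

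At P28 no member transcript was called between KO and WT by limma, where 0.239% of all transcripts were called and 14.1% had an unadjusted p under 0.05; without P28 KO library 2 there was 1 call. Between ages, 2 were called in WT, both lower (Prdm1-201 and Rorb-201), where 0.707% of transcripts were called, 0.507% higher and 0.2% lower. In KO, 3 were called, Prdm1-201 and Nrl-201 lower and Crx-204 higher, where 7.95% of transcripts were called, 4.27% higher and 3.68% lower; Crx-204 was not called there without 12-month KO library 2. The 12-month KO calls depended on the libraries: 1 to 4 member transcripts were called when KO library 2 or any 12-month WT library was left out, Crx-204 in each case. Over all genes, 21.5 to 32.1% were called at 12 months with those libraries left out, against 39.6% with all libraries. The share over all transcripts was not computed with a library left out, at P28 or at 12 months.

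Most of the called genes of a rod and a cone list were lower in KO at 12 months. Of 25 genes listed as rod genes or targets of rod regulators, 1 was called higher and 16 were called lower at 12 months. Of all genes 23.5% were lower, and the list had a median difference of −0.41 against −0.03 over all genes. The rod phosphodiesterase subunit Pde6g was at 251 ± 80.8 CPM in KO and 632 ± 69.9 CPM in WT (−1.38, adjusted p = 0.00316). The rod channel subunit Cngb1 (−0.79), the trafficking protein gene Reep6 (−1.01) and the disc rim gene Rom1 (−0.99) were lower as well. Of 11 cone genes, 1 was higher and 7 were lower (median −0.46), led by the cone transducin subunits Gnb3 (54.9 ± 16.1 CPM in KO and 148 ± 12.0 CPM in WT, adjusted p = 0.00248) and Gngt2, and by Pde6h and Opn1sw.

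Both lists changed with the processing. With GC and length trends removed, 0 rod genes were higher and 1 was lower of 25, and 0 cone genes were higher and 5 were lower of 11, where 4.3% of all genes were called. With a sex term added, limma called 0 in either list and 0 of all genes. Without 12-month KO library 2, 9 rod genes were called, all lower, where 21.5% of all genes were called. Without 12-month WT library 1 or 2, 5 cone genes were called, where 23.9% or 32.1% of all genes were called. At P28, 3 of 25 rod genes (Nxnl1, Rbp3 and Prph2) and 3 of 11 cone genes (Gnat2, Pde6h and Opn1sw) were called, all lower in KO, where 1.49% of all genes were called. Without KO library 2 there were 8 rod genes and 4 cone genes, where 8.52% of all genes were called. Leaving out any other library but 12-month KO library 2 left 0 or 1 rod gene, where 0.0182 to 1.99% of all genes were called. The cone list gave 0 calls without P28 KO library 3 or any of the WT libraries, where 0.0182 to 0.491% of all genes were called. With a sex term both lists gave 0 by limma, where 1 of all genes was called and 11.9% had an unadjusted p under 0.05. Fitting the P28 groups alone called 0 of all genes, and so 0 in either list.

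Co-regulators and partners of the factors did not move one way. Of 25 genes, 2 of them (Samd7 and Esrrb) also in the rod list, 4 were called higher and 10 lower at 12 months, beside 16.1% of all genes higher and 23.5% lower, with a median of −0.05. Ankrd33, a repressor of CRX activity, was at 21.8 ± 6.32 CPM in KO and 48.2 ± 5.39 CPM in WT (−1.14, adjusted p = 0.00306), and the SUMO ligase gene Pias3 at 32.8 ± 7.96 and 63.5 ± 3.71 CPM (−0.96, adjusted p = 0.00316). The alpha thyroid hormone receptor gene Thra was lower (−0.96) and the zinc-finger factor gene Sp4 higher (0.56). With GC and length trends removed, 2 were called, both higher, where 4.3% of all genes were called. At P28, 0 of the 25 were called, beside 1.49% of all genes. Between ages in WT 0 were called, beside 5.4% of all genes. Of the 25, 2 were higher and 6 lower with age in KO, where 27.2% of all genes were called and 13.9% were lower. There Mef2c, of the same family as Mef2d, rose with age, at 290 ± 28.9 CPM at 12 months and 89.4 ± 49.7 CPM at P28 (1.82, adjusted p = 0.00056).

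**Figure D4:**
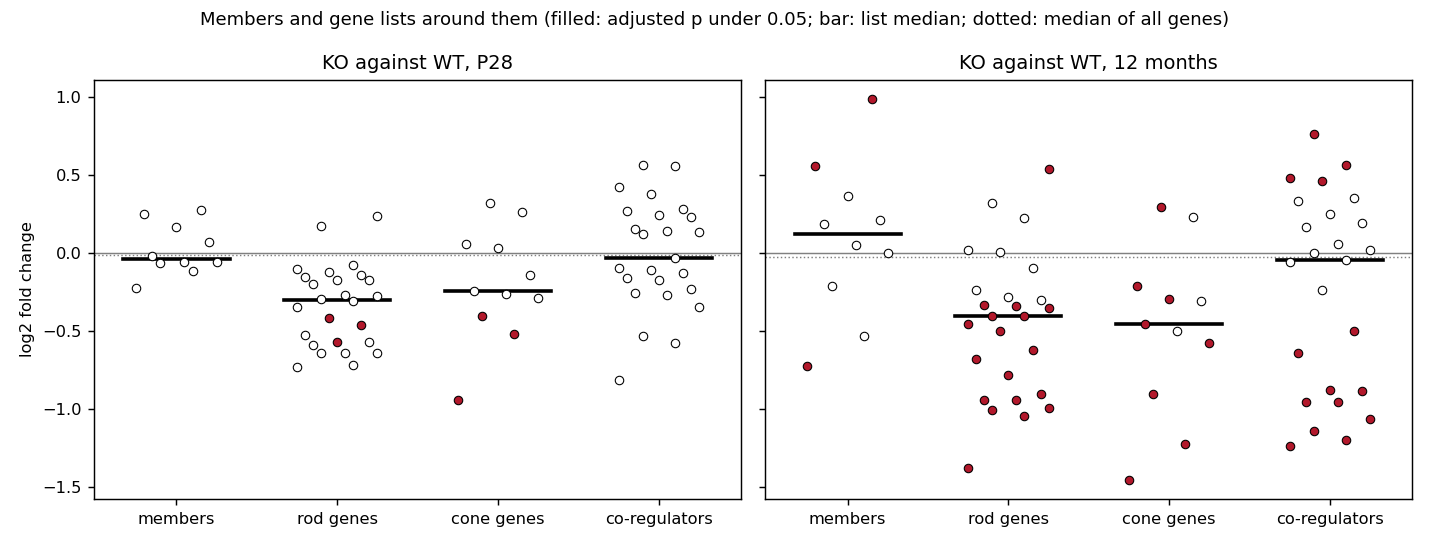
Log2 fold change of KO against WT at P28 and at 12 months for the 10 factors and for the rod, cone and co-regulator lists; each point is a gene, filled where its adjusted p over all genes was under 0.05, the thick bar is the list median and the dotted line the median of all genes. At 12 months the medians of the rod and cone lists are −0.41 and −0.46, and that of the factors is 0.12.

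Markers of other cell types that use some of these factors were set beside them. At 12 months 0 of 12 bipolar markers, cells that also express Otx2, were called higher and 3 lower, beside 16.1% of all genes higher and 23.5% lower, so their share is near the background, and their summed level was 1450 to 1510 CPM in KO and 1400 to 1430 CPM in WT libraries. Of 11 tested amacrine and horizontal markers, which include cells that use Rorb and Neurod1, 4 were higher and 2 lower against the same background, with sums of 1210 to 1330 CPM in KO and 1080 to 1130 CPM in WT. By limma, Chat (−0.88, adjusted p = 0.0031) and Slc6a9 (−0.86, adjusted p = 0.0039) were lower. Onecut1 (0.59, adjusted p = 0.0153), Onecut2 (0.53, adjusted p = 0.0272) and Gad2 (0.37, adjusted p = 0.0287) were higher. So was Calb1 (135 ± 14.9 CPM in KO and 95.5 ± 2.84 CPM in WT, 0.49, adjusted p = 0.0321). The part of these cells in the higher Rorb and Neurod1 was not tested.

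Over the 12 libraries, Prdm1 was followed most closely by Gpr101 (Pearson r of log2(CPM + 1) = 0.978) and Pdgfc (0.977). Neurod1 was followed by Fmr1 (0.987) and Mef2d by Eno2 (0.984). The nearest gene to Rorb was Ccn4 (0.950), to Crx Cbln2 (0.957), to Nrl Uqcrfs1 (0.965), to Otx2 Cfap20 (0.951), to Thrb Usp6nl (0.934) and to Rxrg Jdp2 (0.932). For Nr2e3, whose nearest gene was Gabra5 (0.934), another member, Otx2, was among the 5 nearest (0.900), and both were lowest in P28 KO library 2. These values describe libraries that share group, depth and composition differences.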

How the data were processed

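Retinal poly(A) RNA was sequenced from 12 libraries in 4 groups of 3. Per the labels' design text, the authors quantified reads with kallisto 0.45.0 against Ensembl 102, summed transcripts to genes with tximport 1.30.0 and scaled CPM by TMM with edgeR 4.0.3; that text names a human genome, while the deposited identifiers are mouse. The deposited gene values are therefore a signal, CPM of an effective library, that does not sum to the same total in each column. How the authors made the deposited transcript RPKM values is not given in the sources used here. Depth was read from the value of 1 read in each column; 9.09 to 23.4% of low values were whole reads within 0.01 reads, so no count model was used.

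Genes that reached a CPM of 1 in 3 libraries were tested on log2(CPM + 1), and transcripts with an RPKM of at least 0.5 in 3 libraries on log2(RPKM + 0.1). Log2 fold changes understate those of low genes. Tests used limma 3.58.1 in R 4.3.3 with 4 group means and a mean-variance trend, two-sided, adjusted by Benjamini-Hochberg at 0.05 over all features tested, with 95% intervals from its moderated fit. The steps were tested on simulated data, and figures were drawn with matplotlib 3.10.9. Sequences came from RefSeq promoter windows (GRCm38.p6) and from GENCODE transcripts matched by transcript name. Markers of the retina, pigment epithelium and lens were summed per library.

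The members and the gene lists were chosen with earlier results of these data known. Text names all 10 members, their called transcripts with the paired forms, and the genes most correlated with a member. Of the rod, cone and co-regulator lists it names up to 4 called genes a comparison, from those with the lowest adjusted p. Of the called cell type markers it names only amacrine and horizontal ones. Alternatives for genes were other pseudocounts, filters, scalings, a GC and length correction, a sex term, a replicate block and leaving out each library. Of all 53028 genes, 97.9% had GC and length values. Transcripts were tried with another pseudocount, another filter, a replicate block and leaving out each library. Chosen after seeing the data were GC and length correction with a sex term, list counts under all alternatives, and leaving out both KO libraries numbered 2.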

Additional observations from a re-analysis of the deposited data

How the results depend on the processing

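The age calls of Prdm1 in WT and KO and of Rorb in WT kept their direction and passed under every alternative; the count for WT was 2 when any 1 library was left out. Leaving out 1 library gave 0 to 2 member genes at P28, 3 to 6 at 12 months, 0 to 2 for the difference between these effects and 1 to 4 between ages in KO. The difference reached 2 without P28 KO library 3 (15.2% of all genes called) or 12-month KO library 3 (4.86%), and 1 without P28 KO library 2 (1.43%). The KO age count was 4 without P28 KO library 3 (33.6% of all genes) and 2 without 12-month KO library 3 (27.8%). Member transcripts called ranged over 0 to 1 at P28, 1 to 19 at 12 months, 1 to 3 between ages in WT and 1 to 5 between ages in KO. The share of all transcripts called in those fits was not computed, so these counts have no background beside them. Over all genes the counts were 246 at P28 (3 to 1404 with 1 library left out), 6536 at 12 months (3552 to 7761), 29 for the difference (1 to 2501), 891 with age in WT (418 to 1651) and 4483 with age in KO (2468 to 5539).

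Members that were not called and crossed 0 when 1 library was left out did so at P28 for Otx2 (−0.059 to 0.30), Crx (−0.079 to 0.094), Nr2e3 (−0.24 to 0.22), Mef2d (−0.13 to 0.013) and Rxrg (−0.31 to 0.14), for Nr2e3 at 12 months (−0.025 to 0.020), for Prdm1 in the difference (−0.041 to 0.22) and for Nr2e3 with age in KO (−0.074 to 0.38). With both KO libraries numbered 2 left out, 2 members were called at P28, 1 in the difference and 2 with age in KO. Of all genes 13.8%, 0.898% and 19.5% were called there. Crx (0.094) and Nr2e3 (0.22) at P28, Prdm1 in the difference (−0.047) and Nr2e3 with age in KO (−0.10) changed sign.

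With GC and length trends removed, the counts were 1 at P28, 1 at 12 months and 2 with age in KO. Of all genes 2.32%, 4.3% and 21.5% were called there. Signs then changed for Nr2e3 (0.007785) and Rxrg (0.047) at P28, Nrl (0.25) and Nr2e3 (0.33) at 12 months, Rxrg with age in WT (−0.001517), and Mef2d (0.007416) and Nrl (0.10) with age in KO. With a sex term as well, the counts were 0 at 12 months and 2 with age in KO, where 0% and 12% of all genes were called. At P28 signs changed for Crx (0.015), Mef2d (0.033), Nr2e3 (0.077) and Thrb (−0.052), and at 12 months for Nrl (0.28), Nr2e3 (0.265) and Rorb (−0.024). They also changed for Neurod1 (−0.019) and Prdm1 (−0.035) in the difference, Neurod1 (0.064) and Rxrg (−0.050) with age in WT and Nrl (0.13) with age in KO. With a sex term alone, Crx (0.035), Mef2d (0.051) and Nr2e3 (0.040) at P28, Crx at 12 months (−0.003804) and Neurod1 with age in WT (0.019) changed sign. The causes were not tested.

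Quantile normalization called 5 members at 12 months and 3 with age in KO, where 36.3% and 26% of all genes were called. Otx2 was then at −0.047 at P28, and Otx2 (−0.015) and Crx (−0.13) had the other sign at 12 months. The difference had 1 call under a CPM filter of 5 (0.353% of all genes) and under median-of-ratios scaling (0.194%). Nr2e3 at 12 months became 0.030 under that scaling, 0.0006878 under recomputed TMM and 0.030 with summed RPKM. Fitting only the groups compared gave 5 calls at 12 months, where 45.4% of all genes were called, and 0 at P28, where 0% were called. For the difference all 4 groups are the groups compared, so there was nothing else to fit. Of 18 same-numbered pairs of libraries, 4 had a correlation of deviations over 0.1 (−0.357 to 0.308), so the numbers were not taken as pairing; with a replicate block, 1 member transcript was called between ages in WT in place of 2, and member gene counts did not move by over 1.5 times. Depth limits Rxrg most, at 1.68 to 4.46 CPM against 0.111 to 0.192 CPM for 3 reads.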
